A study of Mus musculus with 8 samples.

Results

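The comparison described here set the 4 dKO libraries against the 4 WT libraries of a mouse dorsal root ganglion series, with the surgery as a second term, so that it asked which genotype difference was common to sham-operated and axotomised ganglia. All 8 libraries of the series entered it. Of 21878 gene symbols in the deposited FPKM table, the 12884 with at least 1 FPKM in at least 2 libraries were tested. Every animal was C57BL/6 and carried Myh9/10 double-floxed alleles. WT animals had those alleles alone and dKO animals also had Advillin-Cre, and each genotype was sampled 3 days after sham surgery or after sciatic nerve axotomy, which the sample names call SNI. Lumbar 4 and 5 ganglia were taken, and each combination of genotype and surgery held 2 libraries, which gives 4 groups. Cre from Advillin acts where that gene is active, so the other cells of the ganglion can keep both myosins, and no group of Cre carriers without floxed alleles was sampled. Nothing in the labels says that a group's 2 libraries came from different animals or how many animals a library pooled, so a p-value reflects only how these libraries varied, possibly for technical reasons.

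Myh9 and Myh10 encode the heavy chains of non-muscle myosins IIA and IIB, motors that pull on actin filaments in growth cones, in crawling cells and in the ring that divides a cell. In a sensory neuron they sit in the growth cone, where actin is drawn backwards against the advancing microtubules. A lumbar ganglion holds sensory cell bodies wrapped by satellite glia, with Schwann cells, fibroblasts, vessels and macrophages around them, and bulk RNA mixes all of these.

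Transcripts that define sensory neurons were present in every library. Prph, peripherin, measured 299 to 699 FPKM, Tubb3, the neuronal tubulin, 859 to 2085 FPKM, and Scn10a, the nociceptor sodium channel Nav1.8, 20.2 to 134 FPKM over the 8 libraries. FPKM totals ran from 278310 to 339920, and read totals were not given, so counting error is unknown. The 10 genes of highest FPKM took 5.55 to 9.01% of the FPKM total, a share 1.52 percentage points higher on average in dKO (exact permutation within surgery, two-sided p = 0.0556, the smallest this design allows). Adjusted by Benjamini-Hochberg over the library measures tested, this p was 0.0834. By the same permutation test the unadjusted p was 0.111 for total FPKM and 0.0556 for genes at 1 FPKM or more. The share was 5.95 and 5.55% in WT against 6.33 and 6.85% in dKO after sham. After SNI it was 6.35 and 6.75% against 8.47 and 9.01%. Transcripts from the Y chromosome (Uty, Kdm5d, Eif2s3y, Ddx3y) were present in WT sham and dKO SNI and at or near 0 in WT SNI and dKO sham, so each genotype held 2 libraries of either kind. The pooled genotype comparison is thereby balanced for them, whereas within either surgery genotype, and with it the difference between the surgeries, cannot be told apart from them. WT sham 2 stood apart in skeletal muscle transcripts, whose summed level over 16 genes was 1030 FPKM there, 91.4 FPKM in WT sham 1 and 50.6 to 98.6 FPKM in the other 6 libraries.

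Over both surgeries, the called genes of the lists for dividing cells, myeloid cells, antigen presentation, complement and matrix were all higher in dKO ganglia. Those of the lists for channels and receptors, subtype markers, vesicle release and cytoskeleton of sensory neurons were all lower. limma called 1122 of the 12884 genes (8.71%) at a Benjamini-Hochberg adjusted p under 0.05, of which 671 were higher (5.21%) and 451 lower in dKO (3.5%). In 1088 of them (8.44%) both dKO libraries also lay on the same side of both WT libraries within sham and within SNI, and these 637 higher (4.94%) and 451 lower genes are called common below. The median difference of log2(FPKM + 1), dKO minus WT, was 0.62 for the common higher genes, -0.54 for the common lower genes and 0.01 for all genes tested. Differences of at least 1 on that scale were reached by 56 common genes that rose and 5 that fell. Whatever the call, the groups were apart in the same direction within both surgeries in 28.1% of tested genes (14.5% higher, 13.6% lower) and apart in opposite directions in 4.77%.

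These calls sat just inside the threshold: 1024 of the 1122 had an adjusted p of 0.03 or more, and the lowest was 0.00702, for Ube2c. The count therefore moved with single libraries. It was 1353 without WT sham 1, 65 without WT sham 2, 19 without WT SNI 1, 36 without WT SNI 2, 2349 without dKO sham 1, 4 without dKO sham 2, and, for dKO SNI, 9 without library 1 and 74 without library 2. The 96 called genes named by rule kept their sign in every alternative that kept the surgery term, and none had an adjusted p above 0.125 in any of them. Avil, Cfp and Ube2c alone among the 96 stayed under 0.05 in all of those. For the common genes among the 96, leaving out 1 library could not have reversed the sign, because their definition fixes it. When every library was scaled to the same FPKM total the split turned, with 39% of calls higher against 59.8% in the values as deposited. Centring each library on its median gave 45.7% higher. Because of this, most gene groups are given by their counts of calls, by their median difference and by the share of members apart in both surgeries. These are to be read against the values over all tested genes above: 5.21% higher and 3.5% lower calls, a median of 0.01, and 14.5% apart upwards and 13.6% downwards. The lists and members were chosen with earlier results of these data known, so an excess over these values is a description and no test.

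**Figure D1:**
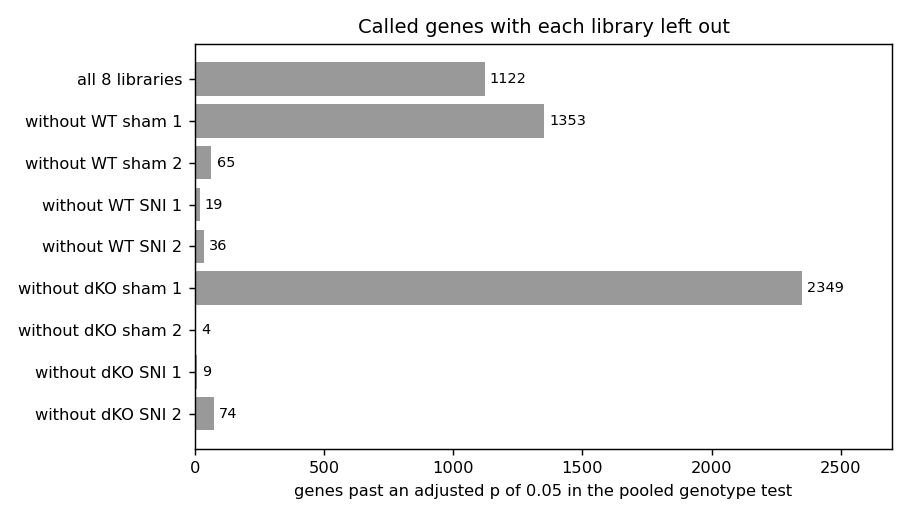
Number of genes called in the pooled genotype test (horizontal axis) with all 8 libraries and with each library left out in turn (bars). The count runs from 4 without dKO sham 2 to 2349 without dKO sham 1, against 1122 with all 8.

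The differences between dKO and WT after the 2 surgeries shared their sign in most genes but not their size. Across tested genes, which are not independent replicates, 71.54% had the same sign after sham and after SNI, and the 2 sets of differences correlated (Pearson r = 0.4871, Spearman rho = 0.5943). The sham and SNI differences rest on separate libraries. Within sham alone 20 genes were called (0.155%), 12 higher (0.0931%) and 8 lower (0.0621%), and within SNI alone 3106 (24.1%), 1374 higher (10.7%) and 1732 lower (13.4%), the SNI count falling to 10 without WT SNI 1 and to 11 without dKO SNI 2. Of the 8 lower genes in sham, 4 were the Y-linked genes. Of 10 genes called after both surgeries, 5 had the same direction (Ube2c, Cfp, Col5a2, Avil and Cyp4f39), and the Y-linked genes and Tyrp1 had opposite ones. Of the 1122 pooled calls, 936 were also called within SNI, 10 within sham and 181 in neither. The difference was larger after SNI in 908 of the 1088 common genes and larger after sham in 180, of which 153 were higher in dKO. Only 7 genes (0.0543%) passed the limma test that the 2 genotype differences differ, against 1863 at an unadjusted p under 0.05. A larger value after SNI in the text below is therefore a description unless its test is given.

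**Figure D2:**
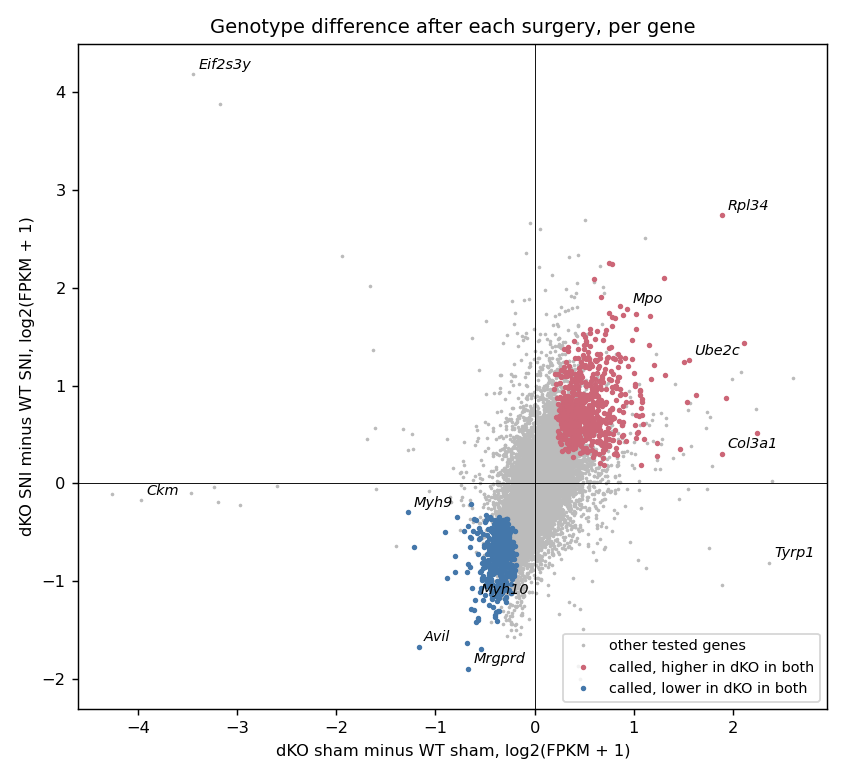
Genotype difference of each tested gene after sham (horizontal) and after SNI (vertical), dKO minus WT on the log2(FPKM + 1) scale, with common higher genes in red, common lower genes in blue and all others in grey. Most coloured points lie farther from 0 vertically than horizontally, while Eif2s3y, Tyrp1 and Ckm lie off the shared direction.

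The targeted genes and the Cre driver came first. Myh9 was lower in dKO by 0.79 on the log2 scale (SE 0.18, limma adjusted p = 0.0383), with a difference of -1.28 after sham and -0.29 after SNI. All 4 dKO libraries, at 10.9 to 24.6 FPKM, lay below all 4 WT libraries, at 27.2 to 31.6 FPKM. The smaller difference after SNI was not called (difference of differences 0.98, 95% interval 0.58 to 1.39, adjusted p = 0.193). Myh10 was lower by 0.90 (SE 0.16, adjusted p = 0.0304), at -0.60 after sham and -1.19 after SNI, with WT at 10.4 to 23.5 FPKM and dKO at 4.12 to 14.4 FPKM, overlapping only across surgeries. Avil, the actin-bundling protein whose gene drives Cre, had the largest fall of all common genes, by 1.42 (SE 0.14, adjusted p = 0.00919). It measured 172 and 180 FPKM in WT against 75.3 and 80.0 FPKM in dKO after sham, and 143 and 112 against 44.1 and 34.5 FPKM after SNI, with no overlap between the genotypes. Over every alternative with a surgery term its difference ran from -1.52 to -1.30. Avil lies on chromosome 10 (127000709 to 127020994, plus strand, GRCm38) and is protein-coding. Myh14, the third non-muscle heavy chain, differed by -0.38 and was not called. Among 36 tested partners and regulators of actomyosin 3 were called, all higher: Myl9 (0.76), Myl12a (0.50), both regulatory light chains, and Flna (0.47), which cross-links actin. Their list had a median of 0.00, with 8 members (22.2%) apart upwards and 4 (11.1%) downwards in both surgeries.

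**Figure D3:**
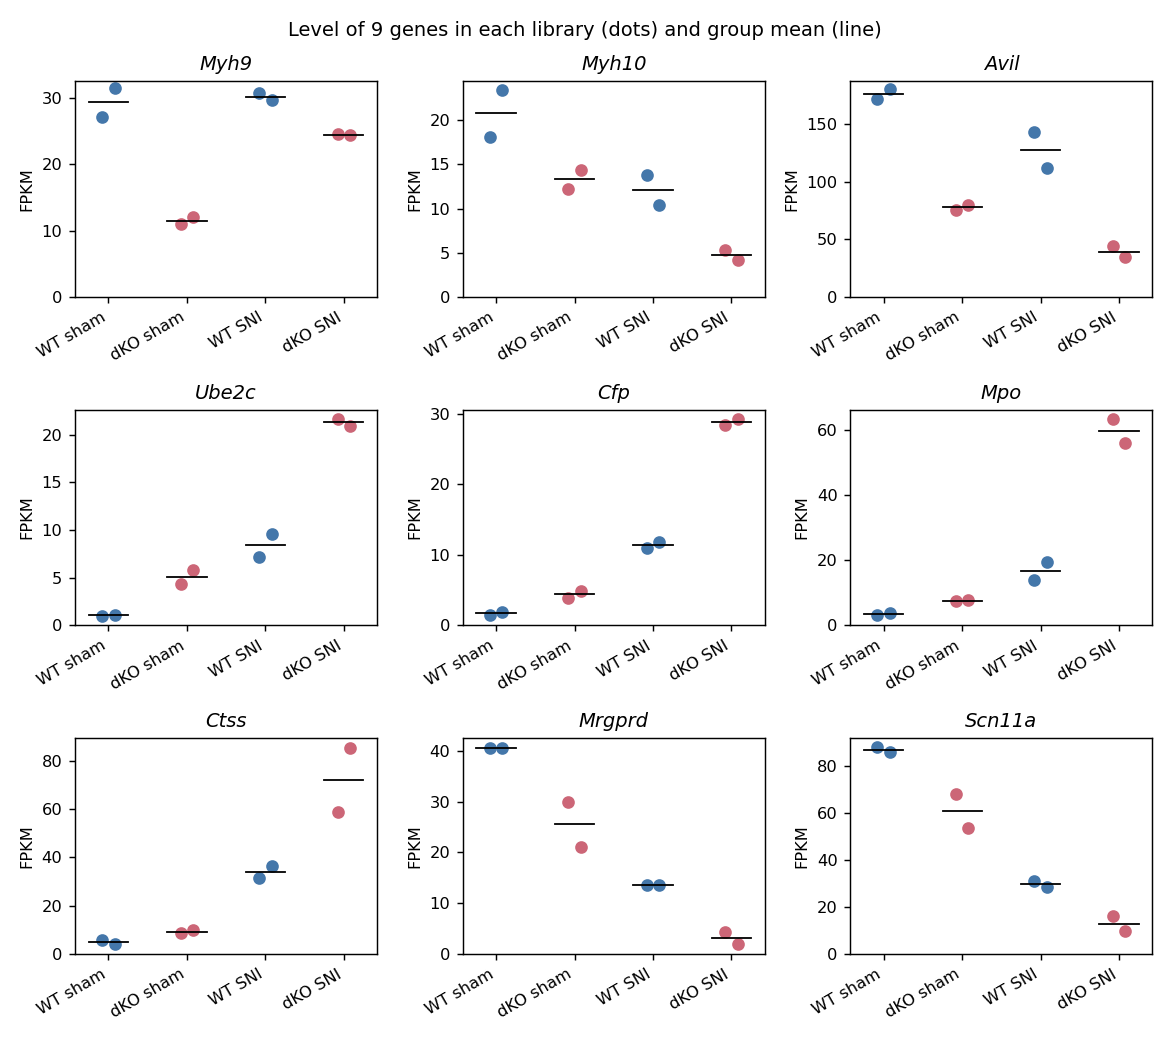
FPKM (vertical, linear from 0) of 9 genes in each library (dots, WT blue and dKO red) and the mean of each group of 2 (lines). Myh9, Myh10, Avil, Mrgprd and Scn11a are lower and Ube2c, Cfp, Mpo and Ctss higher in dKO within each surgery; Avil and Myh9 are the panels in which all dKO lie below all WT libraries.

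Genes of cell division formed the list with the most calls. Of 40 tested genes of the cell cycle and DNA replication, 24 rose and 0 fell in dKO, where 5.21% of all tested genes rose. Both dKO libraries exceeded both WT libraries within both surgeries in 29 of the 40 (72.5%, against 14.5% of all genes). The list's median was 0.65 in the pooled fit, 0.37 after sham and 0.87 after SNI. The median stayed between 0.54 and 0.91 over the alternatives, while the count ran from 1 to 32 as single libraries were left out and was 6 without WT sham 2. Ube2c, the ubiquitin-conjugating enzyme that works with the anaphase-promoting complex, measured 0.989 and 1.09 FPKM in WT against 4.29 and 5.79 FPKM in dKO after sham, and 7.20 and 9.58 against 21.6 and 20.9 FPKM after SNI. It rose by 1.41 (SE 0.12, limma adjusted p = 0.00702), and was also called within sham (1.56) and within SNI (1.26). Each dKO pair lay above the WT pair of its surgery, and WT SNI lay above dKO sham. Ube2c lies on chromosome 2 (164769898 to 164778822, plus strand). Mcm6, a subunit of the replicative helicase, went from 0.998 and 1.12 FPKM to 2.10 and 2.68 FPKM after sham and from 2.98 and 3.28 FPKM to 6.08 and 6.58 FPKM after SNI (0.77, adjusted p = 0.0189). Ccna2, cyclin A2, rose by 1.04 (adjusted p = 0.0189), with 0.81 after sham and 1.27 after SNI. The proliferation marker Mki67 had nearly the same difference after both surgeries, 1.02 and 1.00, and Rrm2, which makes deoxynucleotides, had 1.16 and 1.41. E2f1, a transcription factor of the list, measured -0.20 and was its 1 member with a negative difference.

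The promoters of the division genes show what their sequences share. They were read from RefSeq (GRCm38.p6), and 20 of the 24 called genes matched, with 21 promoters. The search covered the 250 bases before the start on both strands for CCAAT, the box bound by NF-Y, which reads ATTGG on the other strand, and for TTTGAA, which reads TTCAAA there and is the core of the cell cycle genes homology region. CCAAT was found in 19 of the 21 promoters (90.5%), in 29 of 34 promoters of the list's tested genes (85.3%) and in 33.8% of all 32851 promoters in the table. TTTGAA was found in 8 of 21 (38.1%), 11 of 34 (32.4%) and 16% respectively. Among promoters of all tested genes the shares were 34.7% for CCAAT and 10.4% for TTTGAA. The 3 called genes with the smallest p that hold both motifs are printed 5′ to 3′ on the gene's strand, with both motifs in capitals. Each stretch ends at the base before the RefSeq start. For Ube2c the GENCODE start given above lies before the RefSeq start, so its marked TTCAAA falls inside the gene by GENCODE. CCAATTGG holds CCAAT on either strand with 2 bases shared.
Ube2c (chr2:164769679-164769928, plus strand): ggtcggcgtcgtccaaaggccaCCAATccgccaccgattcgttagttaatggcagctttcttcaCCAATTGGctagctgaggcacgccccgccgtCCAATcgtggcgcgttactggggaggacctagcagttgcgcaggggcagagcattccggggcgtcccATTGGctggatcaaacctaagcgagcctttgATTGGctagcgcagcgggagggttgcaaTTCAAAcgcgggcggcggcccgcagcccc
Cdc20 (chr4:118437344-118437593, minus strand): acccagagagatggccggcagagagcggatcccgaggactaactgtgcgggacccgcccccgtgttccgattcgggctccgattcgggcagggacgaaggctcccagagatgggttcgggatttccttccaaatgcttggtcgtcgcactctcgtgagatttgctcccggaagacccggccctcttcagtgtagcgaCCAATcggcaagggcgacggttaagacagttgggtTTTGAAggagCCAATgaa
Cdk1 (chr10:69352913-69353162, minus strand): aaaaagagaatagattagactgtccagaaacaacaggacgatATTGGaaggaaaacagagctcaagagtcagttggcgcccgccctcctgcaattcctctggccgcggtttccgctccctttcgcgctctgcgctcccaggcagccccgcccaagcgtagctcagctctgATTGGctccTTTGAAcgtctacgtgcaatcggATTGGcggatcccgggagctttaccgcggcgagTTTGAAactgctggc
In Ube2c the boxes repeat along the stretch, and in Cdc20 and Cdk1 a TTTGAA lies among the last bases before the start. A match describes these letters only; binding was not measured.

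In the lists of myeloid genes, from the precursor stage to the macrophage, calls were higher only. The genes of primary granules, made in early myeloid precursors, rose in 6 of 13 tested members and fell in 0, with a median of 0.94 (0.41 after sham, 1.28 after SNI) and 6 members (46.2%) apart upwards in both surgeries. Mpo, myeloperoxidase, measured 3.25 and 3.85 FPKM in WT against 7.52 and 7.77 FPKM in dKO after sham, and 14.1 and 19.5 against 63.5 and 56.3 FPKM after SNI, and rose by 1.36 (SE 0.18, limma adjusted p = 0.0189). The neutrophil proteases followed, with Prtn3 at 1.50, Elane at 1.31 and Ctsg at 1.20. Cebpe, a transcription factor of granulocyte maturation, rose by 0.85. The genes of secondary granules and mature neutrophils had 3 of 20 called higher, Stfa2l1 (1.70), Pglyrp1 (1.24) and Chil3 (0.92), and a median of 0.12 after sham against 1.53 after SNI. Their 3 members apart upwards in both surgeries (15%) were close to the share of all tested genes. S100a8 and S100a9, abundant neutrophil proteins, measured 1.13 and 1.04 and were not called. The summed FPKM of the 14 primary granule genes in the table was 81.5 and 87.0 in WT against 99.1 and 124 in dKO after sham, and 230 and 267 against 527 and 589 after SNI.

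Among 30 markers of macrophages and monocytes 17 rose and 0 fell, and 16 (53.3%) were apart upwards in both surgeries. Their median was 0.69, with 0.44 after sham and 1.07 after SNI. Ctss, the lysosomal protease that also trims the class II invariant chain, measured 5.67 and 3.94 FPKM in WT against 8.59 and 9.84 FPKM in dKO after sham, and 31.4 and 36.6 against 58.9 and 85.3 FPKM after SNI (0.94, limma adjusted p = 0.0246). Ly6c2 and Plac8, both prominent in inflammatory monocytes, rose by 1.51 and 1.34, with 2.24 and 2.09 after SNI against 0.78 and 0.60 after sham. Ly6c2 has close paralogs, so its reads may be shared. Mrc1, the mannose receptor, rose by 0.43 and Cx3cr1, the fractalkine receptor, by 0.50, while Cd163 (-0.03) and Lyve1 (0.10) were not called. The summed FPKM of the 30 markers was 204 and 225 in WT against 245 and 389 in dKO after sham, and 721 and 1007 against 1958 and 1932 after SNI. The counts of the primary granule and macrophage lists depended on single libraries. With 1 library left out, each list lost all its calls in some fits and gained calls in others. In these bulk samples more cells of a type, more RNA per cell and less RNA from other cells cannot be told apart.

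Calls among genes of antigen presentation and complement were higher only, and MHC class II had nearly equal medians after both surgeries. Of 11 tested genes of MHC class II presentation 6 rose and 0 fell, 8 (72.7%) were apart upwards in both surgeries, and the median was 0.83 after sham and 0.83 after SNI. H2-Ab1, a class II beta chain, measured 14.7 and 16.7 FPKM in WT against 32.0 and 27.3 FPKM in dKO after sham, and 30.3 and 31.3 against 51.7 and 66.8 FPKM after SNI. Its rise of 0.89 (SE 0.11, limma adjusted p = 0.0189) was 0.88 after sham and 0.91 after SNI. Ifi30, a lysosomal reductase that opens antigens, rose by 1.00 with 1.06 and 0.95. Cd74, the invariant chain, measured 0.52 and was not called. The class I list had 3 of 20 called, H2-K1 (0.91), H2-T22 (1.40) and H2-T23 (1.77), which belong to a family of near-identical genes whose reads the counting could have divided. Its median was 0.10 after sham and 0.85 after SNI, and 4 members (20%) were apart upwards in both surgeries. In the complement list 6 of 19 rose and 0 fell, 9 (47.4%) were apart upwards in both surgeries, and the median was 0.21 after sham and 0.73 after SNI. It was led by Cfp, properdin, which stabilises the alternative pathway convertase. Cfp measured 1.54 and 1.95 FPKM in WT against 3.92 and 4.91 FPKM in dKO after sham, and 10.9 and 11.8 against 28.4 and 29.2 FPKM after SNI. It rose by 1.12 (SE 0.11, adjusted p = 0.00777) and passed within sham (0.98) and within SNI (1.27). The 3 chains of C1q, which starts the classical pathway, rose alike, C1qa by 0.86, C1qb by 0.84 and C1qc by 0.73.

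Calls among chemokines and interferon-responsive genes were also higher only. Of 22 tested cytokines and chemokines 7 rose and 0 fell: Ccl7 (1.24), Ccl2 (1.05), Ccl9 (0.98), Ccl11 (0.98), Ccl5 (0.62), Tgfb1 (0.62) and Cxcl12 (0.49). Of the 22, 8 (36.4%) were apart upwards in both surgeries, and the median was 0.32 after sham and 0.66 after SNI. Ccl2 and Ccl7 draw monocytes and Ccl11 eosinophils. Ccl11 measured 5.77 and 5.11 FPKM in WT against 10.9 and 14.7 FPKM in dKO after sham, and 12.8 and 19.8 against 24.3 and 36.8 FPKM after SNI, with the dKO pair above the WT pair each time. The interferon response list had 8 of 40 called higher and 0 lower, with a median of 0.19 after sham and 1.07 after SNI, and 17.5% of members apart upwards in both surgeries against 14.5% of all genes. Its summed FPKM differed within dKO, at 171 and 326 in the sham libraries and 465 and 1101 in the SNI libraries, against 220 and 181 in WT sham and 300 and 257 in WT SNI. Rsad2, viperin, which makes an antiviral nucleotide, measured 2.16 and 2.59 FPKM in WT against 3.42 and 8.95 FPKM in dKO after sham, and 4.84 and 6.43 against 19.7 and 15.1 FPKM after SNI (1.22, limma adjusted p = 0.0321). Oas2 (0.97) and Oas3 (1.29), enzymes that start RNA decay, and Irf8 (0.84), a factor of the monocyte lineage, also rose. Ifit1 (0.92) and Irf7 (1.44) did not pass.

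The interferon-stimulated response element was searched for on both strands, as GAAA followed after any 2 bases by GAAA, in the same 250 bases. It was present in 16 of 37 promoters of the list's tested genes (43.2%), in 4 of 9 promoters of its called genes (44.4%) and in 2.98% of all promoters in the table. Among promoters of all tested genes the share was 2.64%. Of the 8 called genes of the list, 6 matched a promoter. The 3 called genes with the smallest p that hold it are Rsad2, Trim30a (1.25) and Oas3, and the element is in capitals.
Rsad2 (chr12:26456453-26456702, minus strand): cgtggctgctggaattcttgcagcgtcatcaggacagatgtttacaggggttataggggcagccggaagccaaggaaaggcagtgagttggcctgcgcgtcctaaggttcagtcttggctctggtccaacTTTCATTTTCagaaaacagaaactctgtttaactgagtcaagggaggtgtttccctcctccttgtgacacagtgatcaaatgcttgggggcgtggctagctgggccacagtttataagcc
Trim30a (chr7:104465194-104465443, minus strand): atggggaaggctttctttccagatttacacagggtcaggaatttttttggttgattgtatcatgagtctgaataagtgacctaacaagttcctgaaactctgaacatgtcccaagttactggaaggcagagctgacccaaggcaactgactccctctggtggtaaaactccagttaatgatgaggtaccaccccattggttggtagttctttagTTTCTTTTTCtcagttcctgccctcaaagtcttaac
Oas3 (chr5:120777660-120777909, minus strand): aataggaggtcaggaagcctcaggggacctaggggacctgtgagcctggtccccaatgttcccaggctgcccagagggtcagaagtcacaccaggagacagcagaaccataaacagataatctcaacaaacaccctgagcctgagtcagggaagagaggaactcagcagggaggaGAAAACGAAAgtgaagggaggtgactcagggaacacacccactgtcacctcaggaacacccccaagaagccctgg
The element stands near the start in Trim30a and farther upstream in Rsad2 and Oas3.

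Erythroid and B-lineage lists had calls in the higher direction, with overlap between the genotypes in their sums. Of 17 tested erythroid genes 7 rose and 0 fell, with a median of 1.19 after sham and 0.71 after SNI and 5 members (29.4%) apart upwards in both surgeries. Klf1, the erythroid transcription factor, measured 0.398 and 0.283 FPKM in WT against 2.33 and 3.33 FPKM in dKO after sham, and 2.06 and 5.47 against 15.9 and 5.55 FPKM after SNI (1.37, limma adjusted p = 0.0361). Its WT SNI 2 and dKO SNI 2 values nearly met. The summed level of the 17 genes, mostly globin, was 1444 and 1372 FPKM in WT against 2139 and 5390.5 FPKM in dKO after sham, and 2101 and 5353 against 8041 and 3268 FPKM after SNI, so the genotypes overlapped within SNI. The globins themselves (0.81 to 1.15) were not called. Of 8 B-lineage genes 3 rose: Igll1 (0.50) and Dntt (0.68), expressed in early B-cell precursors, and Cd79a (0.84), a chain of the B-cell receptor. Ebf1, a B-lineage factor also known from other cells and the list's most abundant tested gene, measured -0.44, was not called and was apart downwards in both surgeries, while 2 members (25%) were apart upwards. The summed level of the list was 25.2 and 25.3 FPKM in WT against 30.3 and 29.7 FPKM in dKO after sham, and overlapped after SNI, at 24.8 and 34.5 against 41.5 and 27.8 FPKM. Markers of T and natural killer cells had 0 of 5 called in limma and 3 at an unadjusted p under 0.05. None of the erythroid, granule or macrophage members in the table was at 0 in all libraries. Their part in the other differences was not tested.

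Matrix transcripts had a larger median difference after sham than after SNI. Of 29 collagens and other matrix genes 10 rose and 0 fell, and 13 (44.8%) were apart upwards in both surgeries. The median was 0.78 after sham and 0.30 after SNI, and all 29 had a positive pooled difference. Col3a1, a fibrillar collagen, measured 13.5 and 11.5 FPKM in WT against 43.0 and 55.8 FPKM in dKO after sham, and 57.2 and 75.3 against 77.7 and 84.9 FPKM after SNI. It rose by 1.10 (limma adjusted p = 0.0454), with 1.89 after sham and 0.30 after SNI, and the dKO sham values approached those of WT SNI. Col5a2, which sets fibril diameter, rose by 0.74 (adjusted p = 0.031) and passed within sham (1.03) and within SNI (0.46). Mgp, matrix Gla protein, rose by 1.21, Lum by 0.98, Dcn by 0.88 and Bgn by 0.74, the last 3 being small proteoglycans of collagen fibrils. Col1a1 (0.98) missed the threshold at an adjusted p of 0.0597. With 8.92 and 7.09 FPKM in WT sham and 23.5 and 38.0 FPKM in dKO sham, and 33.3 and 41.8 against 43.9 and 40.5 FPKM after SNI, its groups overlapped after SNI. No matrix gene passed the test of a difference between surgeries. Among vessel genes 3 of 20 endothelial markers rose, Ly6c1 (0.91), Plvap (0.75) and Emcn (0.71), and 2 of 11 mural markers, Acta2 (0.74) and Tagln (0.67). The medians were 0.27 and 0.26, and 7 (35%) and 4 (36.4%) members were apart upwards in both surgeries. Ly6c1 is a close paralog of the monocyte gene Ly6c2, so its reads may be shared and its rise need not be endothelial. Of 21 targets of SRF and YAP, factors that respond to actin and tension, 6 rose and 0 fell, at a median of 0.26, and 8 (38.1%) were apart upwards in both surgeries. These included Ier2 (0.72), Egr3 (0.76) and Axl (0.52) besides the mural Acta2 and Tagln, whereas Fos (0.07) and Ctgf (0.60) were not called.

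Of 52 cytosolic ribosomal protein genes all had positive differences, 7 were called and 22 (42.3%) were apart upwards in both surgeries, at a median of 0.59. Their summed FPKM was 10423 and 8220 in WT against 10375 and 13554 in dKO after sham, and 12671 and 17005 against 24627 and 30738 after SNI. Rpl34 had the largest rise of all common genes (2.32, SE 0.56, limma adjusted p = 0.0414) but ranged from 9.05 to 55.0 FPKM within WT sham and from 15.2 to 54.1 FPKM within WT SNI. Ribosomal genes have many processed copies in the genome, which could share their reads.

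**Figure D4:**
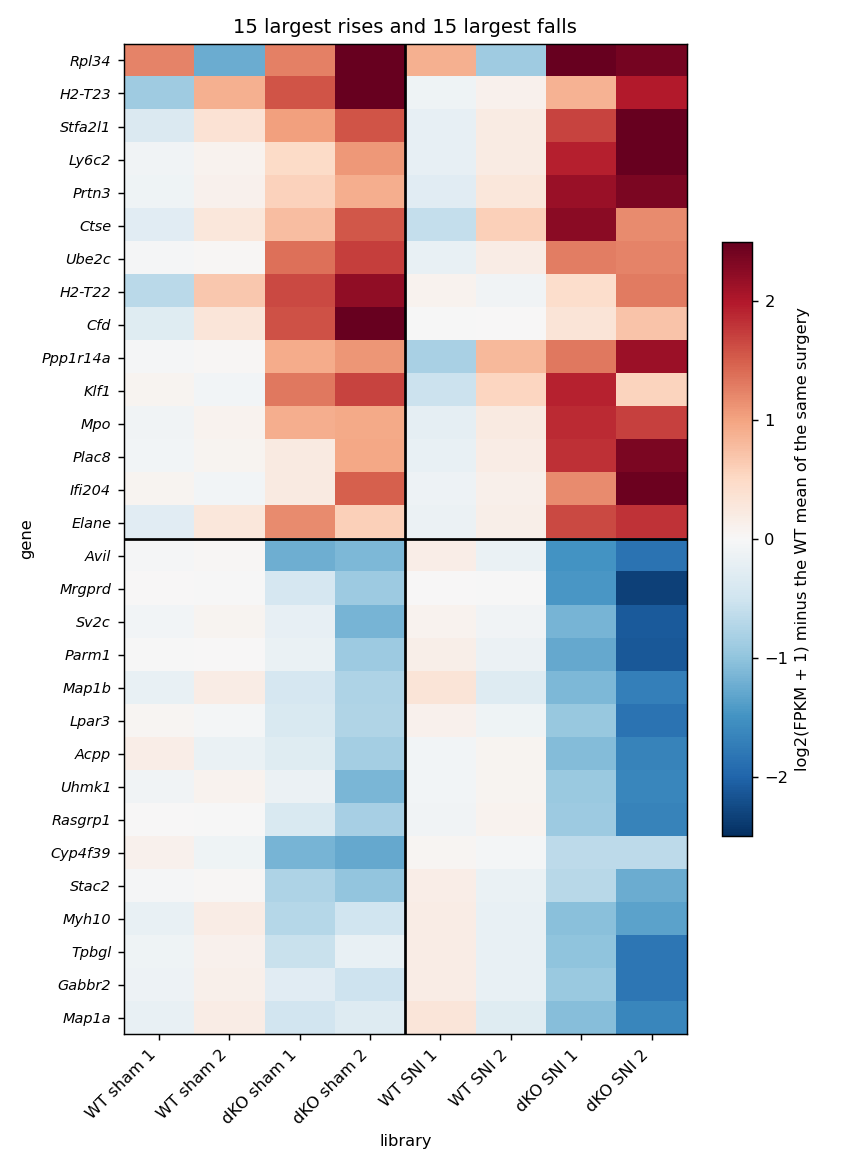
The 15 largest rises and 15 largest falls among common genes (rows) in the 8 libraries (columns), coloured by log2(FPKM + 1) minus the WT mean of the same surgery, with colours saturating at 2.5. Most falls are deepest in dKO SNI 2, and in dKO sham 1 several fall less than in dKO sham 2, as in Sv2c and Parm1.

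The lists of sensory neuron genes had calls in the lower direction only. Of 45 tested ion channels and receptors of sensory neurons 9 fell and 0 rose, where 3.5% of all tested genes fell, and 18 (40%) were apart downwards in both surgeries against 13.6% of all genes. The median was -0.40, with -0.17 after sham and -0.62 after SNI, and 43 of 45 differences were negative. Scn11a, the nociceptor sodium channel Nav1.9, measured 88.0 and 85.8 FPKM in WT against 68.1 and 53.7 FPKM in dKO after sham, and 30.8 and 28.6 against 16.1 and 9.59 FPKM after SNI, and fell by 0.85 (SE 0.18, limma adjusted p = 0.0358). Each dKO pair lay below its WT pair while the surgery moved the gene further. Scn10a fell by 0.61, Grik1, a kainate receptor subunit, by 0.82, Asic2, an acid-sensing channel, by 0.68, and Piezo2, the channel of light touch, by 0.40. Trpv1 (-0.34), P2rx3 (-0.34) and Scn9a (-0.35) were not called.

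Of 32 markers of neuron subtypes 7 fell and 0 rose, at a median of -0.32, and 9 (28.1%) were apart downwards in both surgeries. Mrgprd, the receptor that marks non-peptidergic nociceptors, measured 40.6 and 40.5 FPKM in WT against 29.9 and 21.1 FPKM in dKO after sham, and 13.6 and 13.6 against 4.35 and 1.88 FPKM after SNI, and fell by 1.28 (SE 0.27, limma adjusted p = 0.0346). Ret and Gfra2, the neurturin receptor of the same neurons, fell by 0.72 each, Lpar3 by 0.98, Lpar5 by 0.69, Plxnc1 by 0.66 and Slc17a8, the vesicular glutamate transporter VGLUT3, by 0.48. The peptidergic markers Calca (0.27), Tac1 (0.07) and Calcb (-0.14), and Pvalb (-0.24) of proprioceptors, were not called. Acpp, the acid phosphatase of non-peptidergic nociceptors, which was outside the lists but among the largest falls, went from 84.0 and 67.3 FPKM to 60.7 and 41.5 FPKM after sham and from 30.6 and 33.7 FPKM to 14.6 and 9.44 FPKM after SNI (-0.98). Among 18 transcription factors of sensory identity 5 fell, 0 rose and 11 (61.1%) were apart downwards in both surgeries. Runx1, which specifies non-peptidergic nociceptors, fell by 0.56 with -0.62 after sham and -0.49 after SNI. Prrxl1 (-0.61), Isl2 (-0.60), Pou4f1 (-0.54) and Etv1 (-0.48) were the other 4, and Isl1 (-0.17) was not called.

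Of 28 genes of synaptic vesicle release 5 fell and 0 rose, with 27 negative differences and a median of -0.17 after sham and -1.02 after SNI, and 12 (42.9%) were apart downwards in both surgeries. Sv2c, a vesicle glycoprotein, fell by 1.16, Syt1, the calcium sensor, by 0.69, Bsn, an active-zone scaffold, by 0.46 and Rab3b by 0.45. Rab3b was nearly even, at -0.44 after sham and -0.46 after SNI. Of 25 pan-neuronal and axonal cytoskeleton genes 8 fell, 0 rose and 12 (48%) were apart downwards in both surgeries. Map1b, a microtubule-associated protein of growing axons, measured 245 and 316 FPKM in WT against 207 and 163 FPKM in dKO after sham, and 174 and 112 against 63.5 and 42.1 FPKM after SNI (-1.0, limma adjusted p = 0.0375). Kif5a, a kinesin of axonal transport, fell by 0.71 and Ina, an intermediate filament, by 0.74; Ina alone of the 8 had every dKO library, at 4.13 to 11.6 FPKM, below every WT library, at 11.8 to 14.3 FPKM. Tubb3 (-0.45) and Nefh (-0.85) were not called. Of the neuronal lists above, each lost all its calls in at least 4 of the 8 fits that left out 1 library. Its median stayed negative in all alternatives with a surgery term. The lists with higher calls, other than cell cycle and complement, also lost all those calls in at least 1 of the 8 fits. Because FPKM values are relative, fewer neurons, less RNA per neuron and more RNA from other cells cannot be told apart here.

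Regeneration-associated genes did not share a direction. Of 41 tested, Nts (0.69), the neuropeptide neurotensin, rose, and Klf7 (-0.64), Stat3 (-0.52) and Cd44 (-0.38) fell, at a median of 0.03, with 3 members (7.32%) apart upwards, 5 (12.2%) downwards and 10 in opposite directions in the surgeries. Klf7, a transcription factor linked to axon growth, measured 34.1 and 36.3 FPKM in WT against 31.6 and 19.9 FPKM in dKO after sham, and 32.9 and 29.7 against 18.2 and 16.6 FPKM after SNI. Cd44, a hyaluronan receptor, lay at 28.7 to 33.3 FPKM in the 4 WT and 21.8 to 24.2 FPKM in the 4 dKO libraries, with no overlap. Atf3 (0.44), Sox11 (0.15) and Gap43 (-0.04) were not called. In cholesterol synthesis 2 genes fell, among them Sqle, squalene epoxidase (-0.53), and 11 of 21 (52.4%) were apart downwards in both surgeries. In glycolysis 0 of 22 were called and 11 had an unadjusted limma p under 0.05, while 10 (45.5%) were apart downwards.

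Glial lists showed no common shift. Of 20 satellite glial markers 2 rose, Fabp7 (0.57), a fatty-acid binding protein, and Slc1a3 (0.43), a glutamate transporter, and the list's median was 0.37 after sham and -0.35 after SNI, with 3 members (15%) apart upwards in both surgeries and 9 apart in opposite directions. Slc1a3 measured 2.62 and 2.59 FPKM in WT against 4.68 and 4.74 FPKM in dKO after sham, and 3.42 and 3.55 against 4.70 and 3.68 FPKM after SNI. Of 20 myelinating Schwann cell markers 0 were called in limma and 4 had an unadjusted p under 0.05, at a median of 0.16. The respiratory chain list had 0 of 34 called (11 unadjusted), the p53 list 0 of 19 (3 unadjusted), the skeletal muscle list 0 of 9 (0 unadjusted) and the stress response list 1 of 27, Sdf2l1 (0.53). In lysosome and phagocytosis 4 of 24 rose, Ctsh (0.90), Ctsk (0.67), Cd63 (0.60) and Axl (0.52), at a median of 0.04, with 4 members (16.7%) apart upwards and 5 (20.8%) downwards in both surgeries. Of 6 adipocyte genes Cfd (1.38) rose and Scd1 (-0.52) fell, of 9 genes of bone and cartilage Acp5 (0.72) and Ctsk rose, and of 3 melanocyte genes 0 were called (0 unadjusted).

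**Figure D5:**
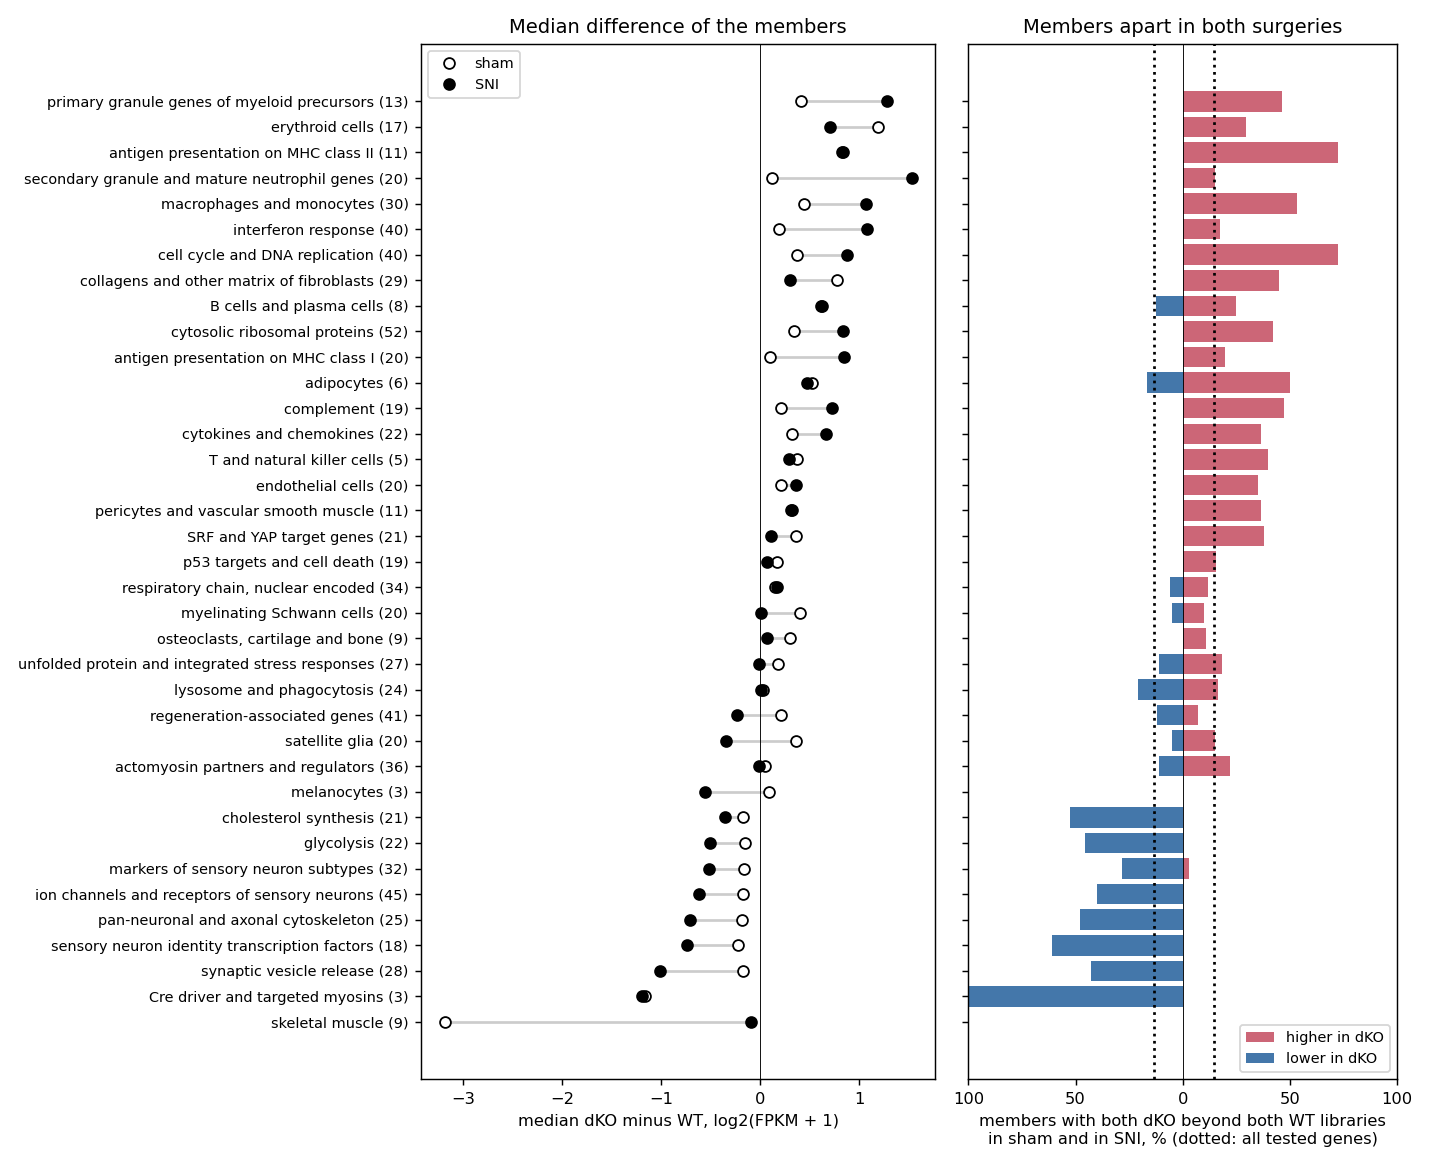
Left, median genotype difference of each list's tested members after sham (open) and after SNI (filled), on the log2(FPKM + 1) scale, with the number of members in brackets. Right, percent of members with both dKO libraries beyond both WT libraries within both surgeries, higher in red and lower in blue, with dotted lines at the shares of all tested genes (14.5% and 13.6%); the cell cycle and MHC class II lists reach 72.5 and 72.7%.

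In 113 called genes (0.877% of those tested) every dKO library lay beyond every WT library whatever the surgery, 67 of them higher (0.52%) and 46 lower (0.357%); called or not, 3.32% of tested genes were so apart. Besides Avil and Myh9, those named here were chosen after their values were seen. Apoc1, an apolipoprotein, measured 2.58 and 3.08 FPKM in WT against 9.04 and 6.75 FPKM in dKO after sham, and 2.42 and 3.83 against 8.56 and 8.28 FPKM after SNI. Its difference was 1.21 after sham and 1.21 after SNI (limma adjusted p = 0.0113). Nr1h3, the sterol-sensing receptor LXR alpha, was at 0.994 to 2.09 FPKM in WT and 2.26 to 4.16 FPKM in dKO (0.78). Fam193b rose by 0.66, Prelid2 by 0.88, Insc, a protein of spindle orientation, by 0.62, and Socs1, an inhibitor of cytokine signalling, by 0.78. Mcpt8, a basophil protease, lay at 0.0881 to 0.86 FPKM in WT and 0.985 to 5.00 FPKM in dKO (1.08). Mcpt8 and Prelid2 passed the filter of 1 FPKM in 2 libraries only with the dKO libraries counted. Their separation is therefore partly built in by the filter and is no support. Among the lower genes, Anxa6, a membrane-binding annexin, measured 151 to 198 FPKM in WT and 75.4 to 147 FPKM in dKO (-0.76). Ide, insulin-degrading enzyme, fell by 0.65, Fasn, fatty acid synthase, by 0.62, Kcng2, a modifier of potassium channels, by 0.77, and Tmem158 by 0.53. Stac2, which binds voltage-gated calcium channels, fell by nearly the same amount after both surgeries, -0.88 and -0.97, although its groups overlapped across them. Cyp4f39, a fatty acid hydroxylase, passed within sham (-1.22) and within SNI (-0.65) as well as in the pooled test (-0.93, limma adjusted p = 0.0189). It measured 7.05 and 6.00 FPKM in WT against 2.36 and 2.10 FPKM in dKO after sham, and 2.57 and 2.33 against 1.20 and 1.19 FPKM after SNI.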

How the data were processed

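Total RNA of ganglia was made into paired-end libraries, per the labels' protocols. The authors deposited 1 table of FPKM values, fragments scaled to transcript length and library size; its 8 columns were matched to samples by the column names in the labels. Per the submitters' processing notes, edgeR (no version), StringTie 1.3.0, HISAT2 2.0.4 and the builds mm10 and GRCm38.p4 are listed, with no role stated. Whether strand was kept, the annotation and the read totals were not given in those sources. FPKM values are relative: abundant transcripts lower the rest.

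Here log2(FPKM + 1) of genes that reached 1 FPKM in 2 or more libraries was fitted with limma 3.58.1 (R 4.3.3): genotype plus surgery for the pooled effect, with 5 residual degrees of freedom, and 1 mean per group for each surgery and for the difference of differences, with 4. Tests were two-sided, moderated with a mean-variance trend and adjusted by Benjamini-Hochberg over all tested genes at 0.05; the fits were tested on simulated data. Named were Myh9, Myh10, Avil, the 15 largest rises and falls among common genes, the 3 smallest p of each of 38 lists and the 5 smallest p of the difference; other list members illustrate their list and were picked with values known. Some list members are not reported here. The members and lists were chosen with earlier results of these data known. Sums of list levels are given with no test. Positions are from GENCODE M21 (GRCm38). Alternatives were other pseudocounts, filters, scalings and models and each library left out. 8 libraries, 2 per group, limit the precision.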

Additional observations from a re-analysis of the deposited data

Results flagged for a closer look

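For 7 genes the genotype difference after SNI differed from that after sham by limma's test of the difference itself (SNI minus sham, log2 scale, adjusted over all tested genes), and none of the 7 was called in the pooled comparison. The 4 Y-linked genes had the largest values, 7.63 for Eif2s3y (adjusted p = 3.79e-08), 7.06 for Ddx3y (3.81e-08), 4.27 for Uty (5.77e-06) and 3.68 for Kdm5d (2.88e-05). Their pooled genotype differences were 0.37, 0.35, 0.19 and 0.18, since either genotype held 2 libraries with these transcripts and 2 without. Tyrp1, an enzyme of melanin synthesis, had -3.17 (adjusted p = 5.93e-05), and measured 3.61 and 4.36 FPKM in WT against 25.6 and 23.5 FPKM in dKO after sham, and 16.9 and 16.7 against 9.83 and 8.53 FPKM after SNI. The predicted gene Gm38495 had 2.55 and Asprv1, a skin protease, 1.40, both at an adjusted p of 0.0408. Each of these differences cannot be told apart from the split in Y-linked transcripts.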

How the results depend on the processing

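The pooled counts of 671 higher and 451 lower genes rested on the filter, the model and single libraries. With no filter on low values 4 and 1 genes were called, and 5 of these were apart within both surgeries. With 1 mean per group and the 2 genotype differences averaged, 1522 and 1344 were called and 2147 were apart in both; this model keeps any difference between the surgeries out of the error term, and it held all 1122 genes called in the additive one. With no surgery term limma called 0 in each direction and 0 apart in both, with 742 at an unadjusted p under 0.05. The count of lower genes was 1018 when libraries were scaled to 1 total, 851 when centred on their median and 277 with the replicate block. With a mean of at least 5 FPKM as the filter, 47.3% of calls were higher. Scaling to 1 total moved the median of all genes after SNI from -0.03 to -0.15. Leaving out 1 library gave 3 to 1385 higher genes, 1 to 964 lower genes and 4 to 2329 genes apart in both; each such fit has 1 residual degree of freedom fewer.

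Within sham the count of 20 was 55 with a pseudocount of 0.1, 6 with no filter, 42 after scaling to 1 total, 47 with the replicate block and 32 when the 4 sham libraries were fitted alone, and ran from 11 to 31 with 1 library left out. Within SNI the count of 3106 was 1892 with no filter and ran from 10 to 3083. The difference of differences had 7 calls, 3 with a mean of at least 5 FPKM, 12 with the replicate block and 5 to 20 with 1 library left out. The share of the 10 most abundant genes differed by 1.38 to 1.65 points with 1 library left out. Where a cause is not named, it was not tested. Replicate numbers are from the labels and were not taken to pair the samples. Deviations of same-numbered libraries correlated at -0.188 to 0.254 between groups, highest for WT SNI with dKO SNI. These values cannot settle whether same-numbered libraries belong together. The replicate block left 842 pooled calls, 785 of them shared with the 1122. In the fits that left out 1 library, the sign of a common gene was fixed by its definition. None of the 96 called genes named by rule changed sign in fits with a surgery term. The medians of 8 of the 38 lists crossed 0 in such fits: actomyosin (-0.09 to 0.06), regeneration (-0.09 to 0.09), satellite glia (-0.09 to 0.13), B cells (-0.44, where the filter at a mean of 5 FPKM left Ebf1 alone, to 1.58), adipocytes (-0.215 to 0.966), melanocytes (-0.10 to 0.27), lysosome (-0.05 to 0.09) and sex-linked genes (-0.17 to 0.30). Depth is unknown.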

Other observations

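The clustered protocadherins, cell-surface proteins that give neurons an identity, were looked at after single members were seen among the lower genes. Of 43 tested, 8 fell and 0 rose in the pooled comparison (3.5% of all tested genes fell), 40 differences were negative and 16 were apart downwards in both surgeries. Their median was -0.24 pooled, -0.17 after sham and -0.45 after SNI. Pcdhb9 measured 3.36 and 4.06 FPKM in WT against 1.76 and 1.64 FPKM in dKO after sham, and 2.65 and 3.21 against 1.62 and 0.667 FPKM after SNI, so that the genotypes did not overlap (-0.85, limma adjusted p = 0.0296). Pcdha12 fell by 0.72, Pcdhac1 and Pcdhac2 by 0.69 each, and Pcdhb5 by 0.45, also without overlap. Pcdhb5 lay at 0.949 to 1.37 FPKM in WT and 0.521 to 0.686 FPKM in dKO. It passed the filter of 1 FPKM through WT libraries alone, so its separation is partly built in and is no support. Most members lay near that filter, where passing through WT favours falls, so the counts of the family are a description. The members of a cluster share exons or are near-identical, so their reads could be divided among them.

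Within 2 Mb of Avil 13 of 68 tested neighbours were called (19.1%), 10 higher and 3 lower, against 8.71% of all tested genes. The same window held 7.92% called around Myh9 and 6.41% around Myh10. The lower neighbours of Avil were Kif5a (-0.71), Ankrd52 (-0.55) and Cs (-0.52), and the higher ones included Arhgap9 (0.85), Cdk2 (0.64), Cd63 (0.60) and Gli1 (0.52). The median difference over the 68 was 0.05.

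The longest annotated transcript had a median of 2573 bases among called higher genes, 4854 bases among called lower genes and 3424 bases among all 12495 tested genes with a position. This was a description added after the calls were seen, and its cause was not tested.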
